A study of Mus musculus with 10 samples.

Results

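The interferon and double-stranded RNA response genes are 46 genes that cells switch on, or use as sensors, when viral or synthetic RNA is met. They were found by gene name among the probes of the array, out of 34650 gene names in all, and the brightest probe of a name, by mean signal, stood for the gene. All 46 were on the array, on 63 probes. The study transfected C2C12 cells, a clonal myoblast line from mouse muscle, with a miR-27a-3p mimic or with a scrambled sequence. Each was given at 150 nM with a lipid reagent, the estimated transfection efficiency was 60%, and total RNA was taken after 72 h. The labels list 6 mimic and 4 scrambled samples, and they state no other genotype or treatment. Untransfected cells were not analysed here, so a response common to both transfections is not visible in a difference between them.

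Double-stranded RNA in the cytoplasm is bound by helicase sensors (Ddx58, known as RIG-I, and Ifih1, known as MDA5), by the kinase Eif2ak2 (PKR) and by the Oas enzymes. The helicases signal through the adaptor Mavs to produce interferon-beta, which acts back on the cell through its receptor, Jak kinases and a complex that contains Stat2 and Irf9. That complex binds the interferon-stimulated response element (ISRE) of antiviral genes such as Ifit1, Mx1 and Isg15, whereas interferon-gamma acts mainly at the gamma-activated site (GAS). A miRNA mimic is itself a short synthetic RNA duplex, and this gene group is the usual check for a response to transfected RNA.

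The transfected miRNA is shown because it defines the treated group. Its mature sequence in RefSeq (GRCm38.p6, chr8:84208727-84208747, plus strand) has the seed, bases 2 to 8, in capitals.
miR-27a-3p: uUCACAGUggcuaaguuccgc

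The promoters of 5 members are shown for what they share apart from expression: Xaf1 and Igtp, the members that differed between the groups, and Isg15, Ifit1 and Oas1a, textbook interferon targets. Each line gives the 250 bases before the RefSeq start on GRCm38.p6, with motif matches in capitals. The ISRE core was searched as GAAA, any 2 bases and GAAA again, or on the other strand TTTC, any 2 bases and TTTC, and the GAS motif as TTCNNNGAA, which reads the same on both strands. Overlapping matches run together.
Xaf1 (chr11:72301379-72301628, plus strand): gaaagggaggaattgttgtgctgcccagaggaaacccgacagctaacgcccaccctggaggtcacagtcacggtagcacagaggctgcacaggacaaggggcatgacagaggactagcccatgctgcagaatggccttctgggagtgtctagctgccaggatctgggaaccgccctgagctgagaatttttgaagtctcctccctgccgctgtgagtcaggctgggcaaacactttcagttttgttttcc
Igtp (chr11:58199306-58199555, plus strand): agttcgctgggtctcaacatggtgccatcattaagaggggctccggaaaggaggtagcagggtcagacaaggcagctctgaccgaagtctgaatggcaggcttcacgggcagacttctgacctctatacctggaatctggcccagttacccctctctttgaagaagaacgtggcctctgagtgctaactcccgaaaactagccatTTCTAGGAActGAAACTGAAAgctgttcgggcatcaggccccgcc
Isg15 (chr4:156200819-156201068, minus strand): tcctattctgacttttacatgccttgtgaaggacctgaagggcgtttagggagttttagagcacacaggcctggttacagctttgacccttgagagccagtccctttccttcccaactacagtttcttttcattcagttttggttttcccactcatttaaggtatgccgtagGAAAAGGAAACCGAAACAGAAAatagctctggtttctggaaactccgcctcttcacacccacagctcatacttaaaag
Ifit1 (chr19:34640639-34640888, plus strand): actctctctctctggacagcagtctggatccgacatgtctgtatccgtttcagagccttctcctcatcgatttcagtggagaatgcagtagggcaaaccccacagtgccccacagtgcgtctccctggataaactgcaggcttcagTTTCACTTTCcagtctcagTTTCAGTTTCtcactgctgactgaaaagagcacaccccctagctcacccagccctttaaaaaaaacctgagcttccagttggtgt
Oas1a (chr5:120907526-120907775, minus strand): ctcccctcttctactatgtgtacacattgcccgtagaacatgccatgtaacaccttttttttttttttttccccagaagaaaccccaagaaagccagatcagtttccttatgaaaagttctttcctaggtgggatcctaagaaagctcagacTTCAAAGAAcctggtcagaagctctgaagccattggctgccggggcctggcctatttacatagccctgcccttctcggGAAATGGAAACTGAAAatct

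The Isg15 promoter held 3 ISRE core matches, starting at -78, -72 and -66 relative to the start, and Ifit1 held 2, at -104 and -85. In Oas1a the 2 ISRE core matches began at -20 and -14, with a GAS match at -98. Igtp had 1 match of each kind, the GAS at -45 and the ISRE core at -34. Neither string occurred in the Xaf1 window. RefSeq promoters of 300 bases (250 before to 50 after the start) were matched for 34 of the 46 members, and 17 of these held the ISRE core, against 3.99% of 27025 genes. The GAS motif occurred in 9 of the 34 members (26.5%) and in 9.55% of all genes. The ISRE core was present in 8 of 14 members whose signal was measured and in 9 of 20 whose signal was not. A match is a string of letters and not a shown binding site.

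The 10 files were 2 scans each of 5 array positions on 1 slide, and the files of a position were averaged, which left 3 mimic arrays and 2 scrambled arrays. Pairs of files from 1 position had 24 to 81 non-uniform spots in common, and pairs from different positions 0 or 1. The series' design text describes 6 and 4 independent transfections, which the 5 positions do not match in number. The p-values reflect variation among the 5 arrays, which may be technical. Of 59305 spots other than controls, 27% to 35.3% per file were well above background. Of 7 myoblast markers, 6 (Myod1, Des, Cdh15, Itga7, Ncam1 and Chrna1) were above background in every file, and Myf5 in 1 of 10. Limma called 0 of those 6, and 5 had lower levels at an unadjusted p under 0.05. Over all genes tested, limma called 5.12% (2.76% higher and 2.36% lower), and 25.3% had an unadjusted p under 0.05 in either direction. Differentiated muscle genes moved with the treatment: 8 of 12 fell and 0 rose by limma (9 and 0 at an unadjusted p under 0.05). Their mean level was -1.23 to -0.32 on the mimic arrays against 0.76 to 0.78 on the scrambled arrays. The lowest of these means was that of mimic array 3, where Ckm (-6.27), Myh8 (-6.48) and Mylpf (-4.71) lay below the dimmest signal well above background (-4.67). Ckm and Myh8 were not called. Mylpf was among the called falls and passed background in 4 of 6 mimic files. Of 6 fibroblast and smooth muscle markers, 5 were measured, and limma called 0 higher and 2 lower (Tagln and Pdgfra). Of the 5 differences, 2 were positive (Dcn 0.48 and Lum 0.19) and 3 negative. At an unadjusted limma p under 0.05, 1 marker was higher (Dcn) and 3 were lower. Pdgfra passed background in 1 of 6 mimic files and 3 of 4 scrambled ones. Its mimic levels (-5.69, -5.87 and -5.85) lay below the dimmest signal well above background there (-5.58, -4.70 and -4.67). The size of its fall thus rests partly on signal not above background. The mean level of the 5 measured markers was -1.42 to -1.29 on the mimic arrays against -1.11 to -0.78 on the scrambled arrays. Of 12 leukocyte markers on the array, Ptprc, Emr1, Lyz2, Fcgr1, Tyrobp and Flt3 were among those above background in no file. The 5 that were measured had mean levels of -2.93 to -2.82 on the mimic arrays against -2.87 to -2.64 on the scrambled arrays. The part of the muscle, fibroblast and smooth muscle genes in the differences of interferon genes was not tested.

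Members were detected about as often as other genes on the array. Of the 46 members, 26 (56.5%) were well above background in none of the 10 files, against 53.6% of all gene names, and 3 more in 1 to 3 files. The 17 others (37.0%, against 37.9% of all gene names) were measured, meaning well above background in at least 4 files, and were tested. Both shares lie near those of all gene names, so they are not a result about interferon genes. Interferon-beta itself (Ifnb1) was above background in no file, as were Cxcl10 and Ccl5, chemokines that attract T cells. The same held for Ifit3 and Ifit1, the latter a binder of foreign RNA, Usp18, the protease that removes Isg15 from proteins, and Irf7, which amplifies interferon production. It held for Rsad2 (viperin), Cmpk2, Ifi44 and the antiviral GTPases Mx1 and Mx2. In the Oas family, 6 of 7 members were above background in no file: Oas1a, Oas1g, Oas2, Oas3, Oasl1 and Oasl2. The sensors Dhx58 and Tlr3, the guanylate-binding proteins Gbp2, Gbp3 and Gbp6, and the antigen-processing genes Psmb8, Psmb9 and Tap1 completed the 26. Ifit2 passed background in 2 of 6 mimic files and 1 of 4 with the scrambled sequence, Zbp1, a sensor of left-handed nucleic acid, in 1 and 1, and Parp14 in 1 and 0. No member was above background in all files of 1 group and in none of the other.

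**Figure D1:**
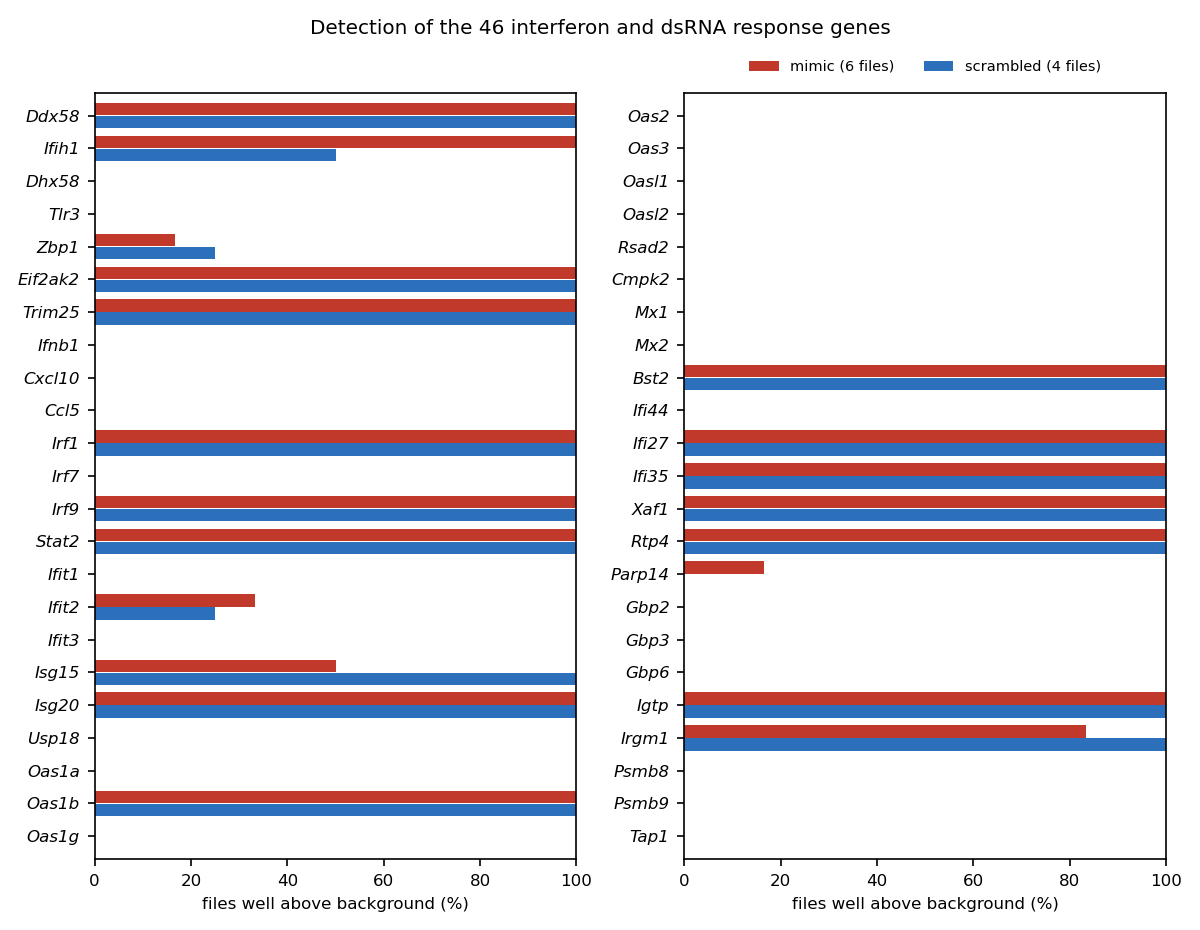
Share of files in which each of the 46 members was well above background (horizontal axis, percent), for the 6 mimic files (red) and the 4 scrambled files (blue). Rows without bars are the 26 members above background in no file; no member has full bars in 1 group and none in the other.

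Absence of signal is a statement about a probe. Of 16 members with several probes, 9 had a probe that was measured, and for 7 of these (Ddx58, Ifih1, Irf1, Irgm1, Isg15, Oas1b and Xaf1) another probe of the same gene was above background in no file. The other 7 members (Cmpk2, Cxcl10, Gbp6, Oas1a, Oas1g, Psmb9 and Zbp1) had no measured probe, and 30 members had 1 probe each. The probes carried an accession that RefSeq lists under the same symbol for 42 members. For Trim25, Oas1b, Mx1 and Mx2 the accession was not in that table, and the name in the files was kept.

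Of the 17 members tested with limma, 1 was higher and 1 lower after the mimic at an adjusted p under 0.05, and 15 did not pass the test. Among all 13089 genes tested, 5.12% passed, 2.76% higher and 2.36% lower. With 2 of 17, the members are too few for their share to be set apart from that background. An unadjusted limma p under 0.05 was found for 2 higher and 3 lower members, and for 25.3% of all genes tested. That share too is near the members' own. The median difference of the 17 was 0.17 on the log2 scale, with 9 positive and 8 negative, against -0.05 over all genes tested. In whole-cell RNA a lower level can mean fewer cells that express a gene or less RNA per cell, and these cannot be told apart.

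Xaf1 rose. It encodes an interferon-induced partner of the apoptosis inhibitor XIAP, and its probe lies at chr11:72122169-72122228 on mm9. Its log2 level, counted from the array's 75th percentile among detected probes, was -2.86, -3.0 and -3.10 on mimic arrays 1, 2 and 3, against -3.98 and -3.79 on scrambled arrays 1 and 2. The mimic arrays all lay above the scrambled arrays, with means of -2.99 ± 0.12 (SD, n = 3) and -3.88 ± 0.13 (SD, n = 2). The difference was 0.90 ± 0.15 (SE), a 1.86-fold rise with a limma adjusted p = 0.035. It was 0.96 in the first scan and 0.83 in the second (adjusted p = 0.034 and 0.051), and 0.57 with normexp background correction, where the call was lost (adjusted p = 0.091). Without mimic array 1, 2 or 3 the adjusted p was 0.185, 0.141 and 0.104, and the differences were 0.83, 0.90 and 0.95. Without scrambled array 1 or 2 the call held (adjusted p = 0.024 and 0.048).

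Igtp fell. It encodes an immunity-related GTPase, also called Irgm3, that acts at vacuoles holding intracellular parasites, and is a typical target of interferon-gamma. Its probe lies at chr11:58020927-58020986 on mm9, and the level was -3.87, -3.86 and -4.11 on the mimic arrays against -2.46 and -3.09 on the scrambled arrays. The groups did not overlap, although the scrambled arrays were 0.63 apart. The means were -3.95 ± 0.14 (SD, n = 3) and -2.78 ± 0.45 (SD, n = 2), and the difference was -1.17 ± 0.22 (SE), a 2.25-fold fall with a limma adjusted p = 0.045. It was -1.17 within each scan (adjusted p = 0.049 and 0.054). The call was also lost in 3 settings that moved the median of all genes from -0.05 to 0.03, 0.11 and 0.03: quantile normalisation (-1.04, adjusted p = 0.083), the percentile over all probes (-1.01, 0.085) and the deposited value table (-1.05, 0.078). Without mimic array 1, 2 or 3 the adjusted p was 0.167, 0.146 and 0.143. Without scrambled array 1 the difference was -0.86 and without scrambled array 2 it was -1.49 (adjusted p = 0.024 and 0.029).

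The RNA sensors and their regulators gave 4 measured members, and 0 passed limma's threshold (1 had an unadjusted p under 0.05). Trim25, the ubiquitin ligase that activates RIG-I, had that p. Its level was 1.21, 1.43 and 1.55 on the mimic arrays against 1.71 and 2.41 on the scrambled arrays, without overlap. The difference was -0.66 ± 0.24 (SE, limma adjusted p = 0.166). The second Trim25 probe, above background in all files, differed by -0.12 with overlapping arrays, so the probes of this gene disagree in size. Ddx58 (RIG-I) was at -2.63 to -2.39 on the mimic arrays, against -2.49 and -3.32 on the scrambled arrays, and differed by 0.43 ± 0.26 (SE, adjusted p = 0.340). Ifih1 (MDA5) was at -3.93 to -3.85 on the mimic arrays, against -4.07 and -5.40 on the scrambled arrays. It was above background in 6 of 6 mimic files and, among the scrambled ones, in the 2 files of scrambled array 1, so its difference of 0.83 ± 0.38 (SE, adjusted p = 0.230) rests partly on signal not above background. Eif2ak2 (PKR), which halts translation when it binds double-stranded RNA, was at -4.34 to -4.10 and at -4.02 and -3.75. Its difference was -0.30 ± 0.16 (SE, adjusted p = 0.287).

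The transcription factors were measured except for Irf7, and 0 of 3 passed limma (0 at an unadjusted p under 0.05). Irf1, an early target of interferon-gamma, was at -1.01, -1.02 and -0.97 on the mimic arrays, against -0.87 and -0.97 on the scrambled arrays. The groups overlapped, and the difference was -0.08 ± 0.13 (SE, limma adjusted p = 0.726), or 0.08 with the percentile over all probes. Stat2, the subunit that carries the activation domain of the interferon-activated complex, was at -0.69, -0.55 and -0.99 against -1.01 and -1.81. Its arrays did not overlap, mimic array 3 lay just above scrambled array 1, and the difference was 0.67 ± 0.27 (SE, adjusted p = 0.200). Irf9, its DNA-binding partner, was at -2.96 to -2.68 against -2.62 and -3.56, and differed by 0.31 ± 0.29 (SE, adjusted p = 0.530).

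Of the antiviral effectors, Isg20, an exonuclease that degrades viral RNA, came closest to the threshold after the called genes. Its level was -0.87, -0.87 and -1.12 on the mimic arrays against -1.67 and -2.31 on the scrambled arrays. The groups did not overlap, and the difference was 1.04 ± 0.23 (SE, limma adjusted p = 0.059), 2.06-fold. A second Isg20 probe, also above background in all files, differed by 0.60 without overlap. With the mean of the Isg20 probes the adjusted p was 0.038, and it was 0.014 without scrambled array 1, where the difference was 1.36, against 0.090 and 0.72 without scrambled array 2. Across 18 alternatives the difference stayed positive, between 0.72 and 1.36, with an adjusted p of 0.0008 to 0.360.

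Isg15, the ubiquitin-like protein that is joined to other proteins after interferon, was at -4.02, -5.13 and -4.25 on the mimic arrays, against -4.15 and -3.83 on the scrambled arrays. Mimic array 2 lay below the rest, and the groups overlapped. The difference was -0.48 ± 0.35 (SE, limma adjusted p = 0.411), and it was -0.86 in the first scan and -0.11 in the second. Isg15 passed background in 3 of 6 mimic files and in 4 of 4 with the scrambled sequence.

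Oas1b, the paralogue that governs resistance to flaviviruses in mice, was the measured member of its family. Its level was 0.85, 0.86 and 0.61 on the mimic arrays against 0.83 and 0.38 on the scrambled arrays, with a difference of 0.17 ± 0.19 (SE, limma adjusted p = 0.590) and overlap between the groups. It was -0.05 without scrambled array 2. A second Oas1b probe, above background in all files, differed by 0.21, and the remaining one was above background in no file. The Oas1 genes are close paralogues, so 1 probe may bind RNA of more than 1 gene.

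Ifi27, a small membrane protein named for its induction by interferon-alpha, was at 1.39, 1.46 and 1.36 on the mimic arrays, against 1.51 and 1.33 on the scrambled arrays. The difference was -0.01 ± 0.14 (SE, limma adjusted p = 0.961), with a sign that changed in 6 of 18 alternatives. Bst2 (tetherin), which holds budding virus at the cell surface, was at -3.40 to -3.26 against -4.03 and -3.44, a difference of 0.41 ± 0.20 (SE, adjusted p = 0.262). Rtp4, an interferon-induced chaperone of membrane receptors, was at -2.37 to -2.09 against -2.29 and -3.03, a difference of 0.45 ± 0.25 (SE, adjusted p = 0.303). Ifi35, which binds the signalling protein Nmi, was at -3.25 to -2.85 against -2.71 and -2.20, a difference of -0.54 ± 0.22 (SE, adjusted p = 0.194). The arrays of Bst2 and Ifi35 did not overlap, and those of Rtp4 did. Irgm1, a GTPase of the same group as Igtp, was at -4.68 to -4.20 against -4.19 and -4.12 and differed by -0.23 ± 0.19 (SE, adjusted p = 0.456).

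The mimic and scrambled arrays did not overlap for 10 of the 17 members (58.8%), 5 higher and 5 lower. The same was so for 45.6% of all genes tested, 19.9% higher and 25.7% lower, so separation of so few arrays is common. The scrambled arrays lay farther apart than the range of the 3 mimic arrays for 14 of the 17 members (82.4%), against 62.4% of all genes. In Ddx58, Ifih1, Irf9, Stat2, Isg20, Oas1b, Ifi27 and Rtp4 scrambled array 2 was the lowest of the 5 arrays. In Trim25, Eif2ak2, Isg15, Ifi35 and Irgm1 it was the highest. How often either held over all genes was not computed. Without scrambled array 1 limma called 10 of the 17 members, 7 higher and 3 lower, beside 33.2% of all genes, with scrambled array 2 as the lone control, assumed to vary like the mimic arrays. Without scrambled array 2 it called Xaf1 and Igtp, beside 4.33% of all genes. Without mimic array 1, 2 or 3 it called 0 members (3, 3 and 5 at an unadjusted p under 0.05), beside 0.359%, 0.603% and 1.061% of all genes, shares at which 0 of 17 is near the background. The median difference of the members became -0.10 if scrambled array 2 was left out and 0.12 if scrambled array 1 was.

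**Figure D2:**
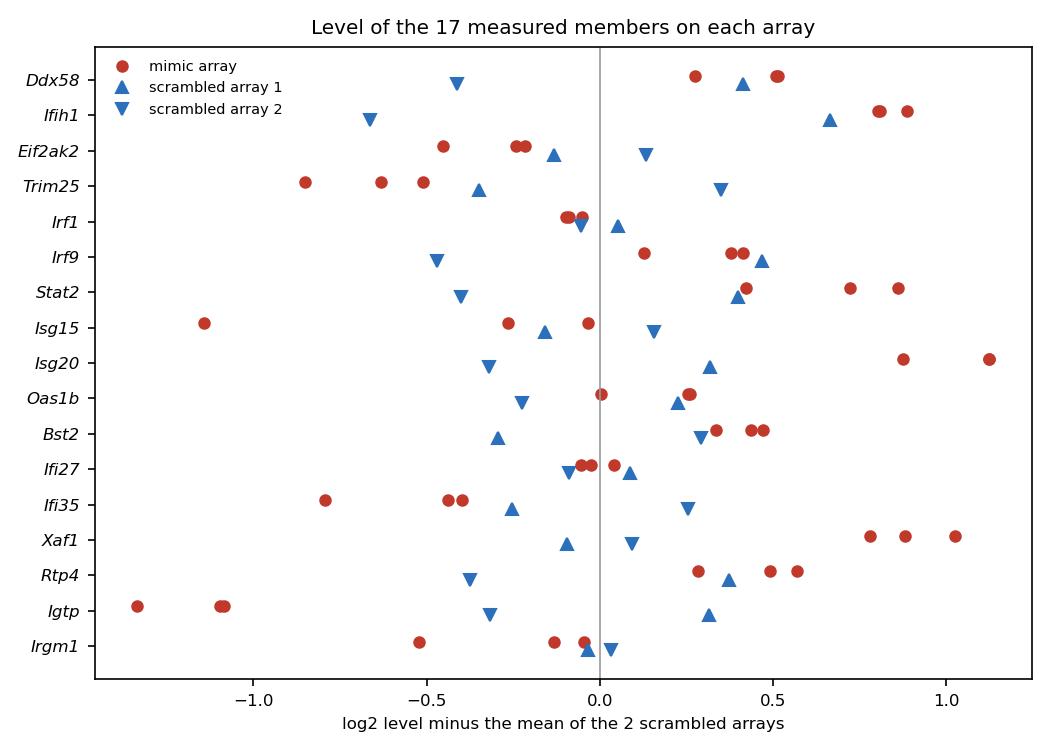
Log2 level of the 17 measured members on each array, relative to the mean of the 2 scrambled arrays of that gene (horizontal axis), for the 3 mimic arrays (red circles), scrambled array 1 (upward triangles) and scrambled array 2 (downward triangles). The mimic arrays of Xaf1 and Isg20 lie to the right of both scrambled arrays and those of Igtp to the left, while the scrambled arrays of Ifih1 are the farthest apart.

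The rest of the pathway was examined in 158 further genes, of which 145 were on the array and 78 were measured. Limma called 4 higher and 2 lower (7.69%, against 5.12% of all genes), and 72 did not pass. Their median difference was -0.04. None of 15 further interferon genes on the array, among them Ifng, Ifne and members of the Ifna cluster, was above background in any file.

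The receptor chain and the adaptors were expressed. Of 16 receptor and JAK-STAT genes on the array, 13 were measured and 0 passed limma (an unadjusted p under 0.05 was found for 2 higher and 2 lower). Ifnar2, a chain of the interferon-alpha and -beta receptor, was at -0.47, -0.42 and -0.55 on the mimic arrays, against -1.05 and -1.25 on the scrambled arrays. The difference was 0.67 ± 0.14 (SE) and missed the threshold (limma adjusted p = 0.058). Ifnar1, the other chain, differed by 0.47 ± 0.23 (SE, adjusted p = 0.260). Mavs, the mitochondrial adaptor of RIG-I and MDA5, was at -2.17 to -1.91 against -2.18 and -2.07 (difference 0.10 ± 0.15 SE, adjusted p = 0.677). Irf3, the factor it activates, differed by 0.24 ± 0.22 (SE, adjusted p = 0.509), and Adar, which edits double-stranded RNA, by -0.18 ± 0.28 (SE, adjusted p = 0.708).

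Of 25 genes of nucleic acid sensing on the array, 16 were measured and 1 was called. Tmem173, known as STING, the adaptor of cytosolic DNA sensing, fell. Its level was -2.51, -2.52 and -2.63 on the mimic arrays against -1.45 and -1.59 on the scrambled arrays, without overlap. The difference was -1.04 ± 0.14 (SE), 2.05-fold, with a limma adjusted p = 0.018.

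Among 72 further interferon-induced genes on the array, 39 were measured, 3 rose and 1 fell. Ifi27l2a, a relative of Ifi27 whose gene overlaps it in the RefSeq annotation, was at -1.93, -1.95 and -1.85 on the mimic arrays, against -3.65 and -4.19 on the scrambled arrays. The difference was 2.01 ± 0.19 (SE), a 4.03-fold rise with a limma adjusted p = 0.0086, and 3 of 4 scrambled files were above background. Apol9a, an interferon-induced apolipoprotein L, rose by 1.18 ± 0.16 (SE, adjusted p = 0.018), and Ifitm1, a membrane protein that hinders viral entry, by 0.88 ± 0.14 (SE, adjusted p = 0.026). Apol9b, nearly identical to Apol9a, differed by 0.98 (adjusted p = 0.062), and a probe for one can take up the other. Irgm2, whose probe lies near that of Igtp (chr11:58036093-58036152, mm9), fell by 1.33 ± 0.23 (SE, adjusted p = 0.035); its probe passed background in 1 of 6 mimic files and 3 of 4 scrambled ones. The levels of mimic arrays 2 and 3 (-5.46 and -5.18) lay below the dimmest signal well above background on those arrays (-4.70 and -4.67), so the size rests partly on signal not above background. The Irgm2 call was lost in 11 of 17 alternatives, among them the deposited value table (adjusted p = 0.069), quantile normalisation (0.072), eBayes with trend and robust (0.051), the second scan (0.062) and normexp, where the difference was -0.62 (0.080).

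In antigen presentation 10 of 17 genes on the array were measured, and 1 rose. Nlrc5, the transactivator of MHC class I genes, was at -2.81, -3.29 and -2.75 against -4.08 and -4.77, a rise of 1.48 ± 0.27 (SE, limma adjusted p = 0.041) with 2 of 4 scrambled files above background. Scrambled array 2 (-4.77) lay below the dimmest signal well above background there (-4.73), so this size too rests partly on signal not above background. The Nlrc5 difference was 0.84 with normexp (adjusted p = 0.034) and 1.14 without scrambled array 2, where the call was lost (0.102). B2m, the light chain of MHC class I, was at 2.49 to 2.54 against 2.32 and 2.24. It differed by 0.23 ± 0.13 (SE, adjusted p = 0.310), and its arrays did not overlap. The 6 calls among the other pathway genes became 0, 0 and 1 without mimic array 1, 2 or 3 (15, 18 and 21 at an unadjusted p under 0.05 by limma), 34 without scrambled array 1 and 5 without scrambled array 2. The shares of all genes called in these fits were 0.359%, 0.603%, 1.061%, 33.2% and 4.33%, so the count moved with that of all genes. The sign of each of the 6 differences was the same in every alternative in which the gene was tested.

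**Figure D3:**
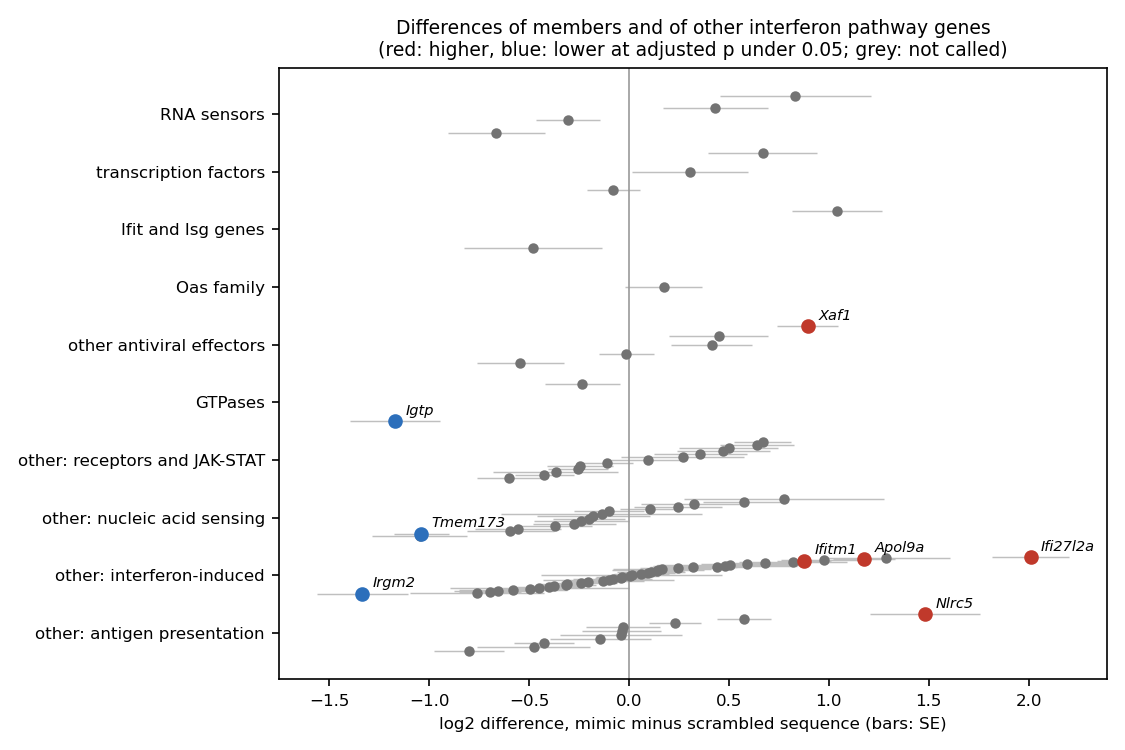
Log2 difference, mimic minus scrambled sequence (horizontal axis, bars SE), of the 17 measured members by role and of the 78 measured genes of 4 other pathway lists. Red points are genes called higher, blue points genes called lower and grey points genes not called; Xaf1 and Igtp are the called members.

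**Figure D4:**
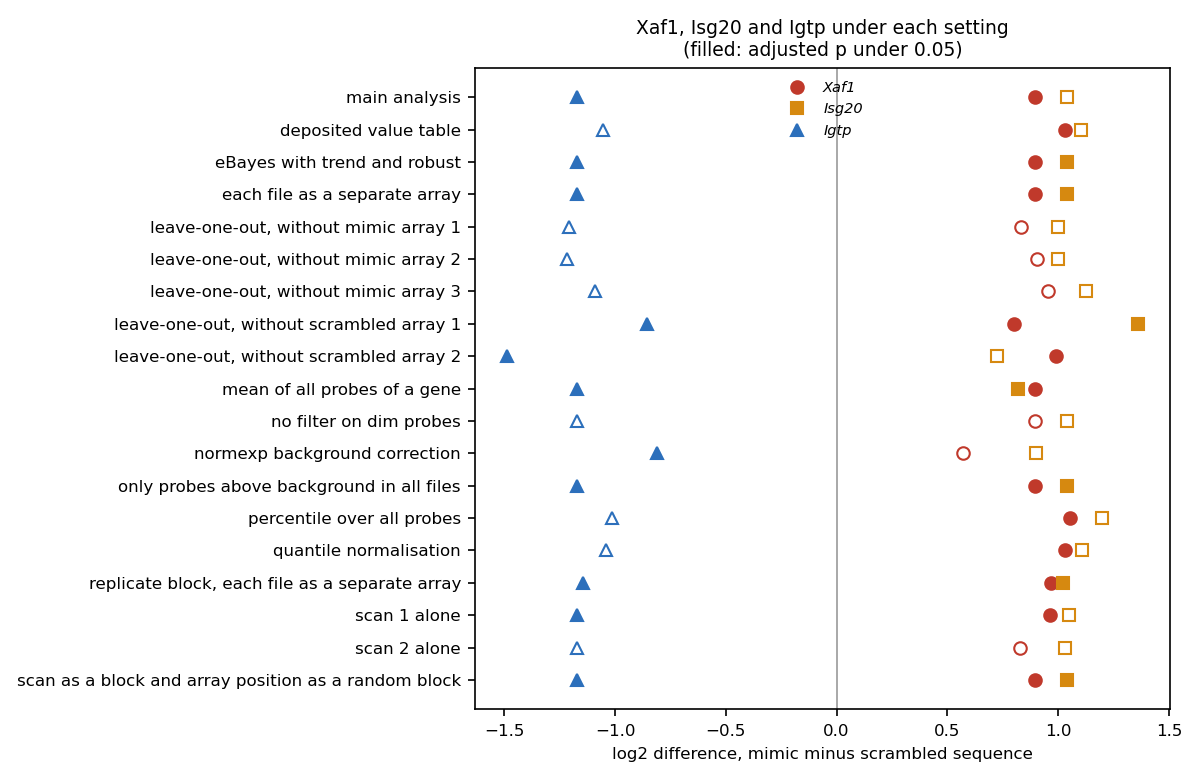
Log2 difference of Xaf1 (circles), Isg20 (squares) and Igtp (triangles) in the main analysis and in 18 alternatives (rows), with filled symbols at an adjusted p under 0.05. The sign of each gene is the same in every row; Xaf1 is filled in 12 of the 18 alternatives, Igtp in 10 and Isg20 in 7.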

How the data were processed

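RNA of 6 mimic and 4 scrambled samples was measured on 1-colour Agilent arrays. The deposited scanner files give linear spot intensity, which per the file headers was background-subtracted and detrended by Agilent Feature Extraction 12.0.0.7 with probe positions on mm9. A different version, 10.7.3.1, is named per the submitters' processing notes. The deposited value table, used as an alternative, also holds intensity. It was linear and not centred and ran in the direction of the processed signal (Spearman correlation of 0.9987 or more). Its normalisation between arrays is not given in the sources used here. Its column medians were 192.1, 275.6, 260, 214.7, 252.7 and 294.2 for mimic replicates 1 to 6 and 245, 244.8, 202.9 and 214.9 for scrambled replicates 1 to 4. The rule for its empty cells is unknown.

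From the processed signal, control spots and outlier spots (157 to 270 per file) were left out, log2 was taken and the 75th percentile of each file was subtracted, taken among the 12909 probes detected well above background in every file. Each gene name was represented by its brightest probe, kept if well above background in at least 4 of 10 files (13143 genes, of which 54 lacked a value on an array). The 2 scans of an array position were averaged. The mimic minus scrambled difference was fitted by limma's lmFit and eBayes (limma 3.58.1, R 4.3.3), which was tested on simulated data. There were 3 residual and 2.93 prior degrees of freedom. P-values were adjusted over 13089 genes by the method of Benjamini and Hochberg. All adjusted p-values come from these fits. Of the calls, 46.1% were lower, and 32.0% with the percentile over all probes, which moved the median of all genes from -0.05 to 0.11. Precision is limited by how few arrays there were.

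The members and lists were chosen with earlier results of these data known. Values per array are given for called members and, in each role, for the tested member with the highest mean level and that with the smallest p; of other pathway genes, for called ones and for Ifnar1, Ifnar2, Mavs, Irf3, Adar and B2m. Some items of the lists are not reported here. Values given beyond this rule were chosen after they were seen. Alternatives changed the array unit, the scan or replicate block, the scaling, the background correction, the source of values, the filter, the probe rule, the variance model and the arrays included. RefSeq tables of GRCm38.p6 served for names and sequences.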

Additional observations from a re-analysis of the deposited data

How the results depend on the processing

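Against 2 called members (1 higher, 1 lower), taking each file as a separate array gave 8 (5 higher, 3 lower), and leaving out 1 array gave 0 to 10 (0 to 7 higher, 0 to 3 lower). Limma called 0 members without the filter on dim probes (5 at an unadjusted p under 0.05) and 0 in the second scan alone (4). The shares of all genes called there were 0.0493% and 4.07%. It called 1 member with normexp (0 higher), beside 4.17% of all genes. It called 1 (0 lower) in the deposited value table, with the percentile over all probes and with quantile scaling. All-gene shares there were 5.01%, 5.55% and 5.06%. It called 2 members higher with eBayes trend and robust, with the mean of all probes, and with only probes above background in all files. The shares of all genes called there, in either direction, were 5.84%, 5.39% and 5.79%. Also 2 were higher with the scan as a block and with the replicate block, beside 11.2% and 14.9% of all genes called. The other pathway genes, 6 in the main analysis, gave 36 calls with separate files, 16 with the scan block, 17 with the replicate block, 0 without the filter (27 at an unadjusted p under 0.05) and 0 to 34 with 1 array left out. The median difference of the members was -0.10 to 0.26 with 1 array left out. Counts over all genes went from 670 to 4499, 1455, 1942 and 17 in the first 4 of these settings (separate files, scan block, replicate block, no filter) and to 47 to 4342 with 1 array left out. The causes were not tested.

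The sign turned for Irf1 (0.0799 with the percentile over all probes), for Oas1b (-0.0517 without scrambled array 2, the lowest with 1 array left out, where the highest was 0.3987) and for Ifi27: 0.15 with the percentile over all probes, 0.0145 with quantile scaling, 0.0091 for the deposited values, 0.0365 in the second scan, 0.0082 without mimic array 3 and 0.075 without scrambled array 1. None of these values was called. Files with the same replicate number came from the same scan for replicates 1, 2 and 4, and from different scans for replicate 3. Their deviations correlated at 0.38, -0.04, -0.35 and -0.10 for replicates 1 to 4, and 1 of 4 mimic files correlated best with its own number. The replicate block, on the 8 files of replicates 1 to 4, called 3 members, against 4 in those files without it. The shares of all genes called were 14.9% and 24.4%.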
